A study of Mus musculus with 24 samples.

Results

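The 10 circadian clock genes described are *Arntl*, *Clock*, *Per1*, *Per2*, *Per3*, *Cry1*, *Cry2*, *Nr1d1*, *Nr1d2* and *Dbp*. They were taken as a list of gene names, and all 10 are among the 13998 genes of the deposited hypothalamus table. The table comes from SAGE-Seq, which counts a short tag near the 3′ end of each transcript, in 24 male F_2_ mice derived from the B6.CAST-17.1 subcongenic strain. Of these, 12 were *cast/cast* and 12 *b6/b6* over the Chr 17 segment, and all 24 carried *b6/b6* alleles over the rest of the genome. The mice were 10 to 16 weeks old when first weighed, some days before a 10 d choice between a carbohydrate/protein and a fat/protein diet. Those chosen for sequencing were *cast/cast* mice from the upper tail and *b6/b6* mice from the lower tail of intake of the carbohydrate/protein diet, so genotype and intake cannot be told apart. After at least 2 weeks on chow and about 48 h back on the diets they were fasted for 4 h and killed. The lights were on for 14 h and off for 10 h, and the clock time of collection was not given in the sources used here.

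The mammalian clock is a feedback loop of transcription. ARNTL (BMAL1) and CLOCK form an activator that binds E-box elements of *Per*, *Cry*, *Nr1d1*, *Nr1d2* and *Dbp*, and the PER and CRY proteins return to the nucleus to repress it, while the nuclear receptors NR1D1 and NR1D2 (REV-ERBα and REV-ERBβ) repress *Arntl* through RORE elements. The suprachiasmatic nucleus, a small part of the hypothalamus, is the master clock, and most other hypothalamic cells hold clocks of their own, so the RNA level of several of these genes depends on the hour at which a mouse is killed.

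Each mouse gave 1 library and is a separate animal. The deposited normalized counts are tag hits divided by the size factor of the library, and the tag hits recovered from them totalled 7754202 to 13082873 per mouse. Of the libraries, 4 stood apart from the others, with a median Spearman correlation to the other mice over all genes more than 3 scaled median absolute deviations below the median mouse. They were *cast/cast* 4 and 6 (median rho 0.923 and 0.892) and *b6/b6* 6 and 12 (0.901 and 0.872). These mice had study numbers 15, 72, 42 and 27, all within the lower part of the range of 15 to 364. The study number is a label that was taken as a proxy for when a mouse was tested, and its link to time was assumed. The study tested its mice in 5 cohorts, which the labels do not give for each mouse. The tissue label was checked on hypothalamic markers, of which 16 of 17 were in the table. The most abundant of these was *Pmch*, which encodes melanin-concentrating hormone, with a mean of 8129.8 normalized counts. *Pomc* ranged from 320.3 to 5589 normalized counts and *Hcrt*, the orexin gene, from 20.2 to 4102. Markers of the suprachiasmatic nucleus also varied, *Vip* from 11.8 to 302 and *Avp* from 27.3 to 577 normalized counts. In bulk tissue, fewer cells of a kind and less RNA per cell cannot be told apart.

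SAGE-Seq reads 1 position per transcript, so that its counts do not scale with transcript length and levels of different genes may be set side by side as tags per library. On this scale of normalized counts, with means over the 24 mice, *Dbp*, a transcription factor of the PAR bZIP family that carries clock output, led with 2341. The repressor *Nr1d1* followed with 431, *Cry2* with 403, *Arntl* with 273, *Nr1d2* with 192 and *Cry1* with 175. *Per2*, *Per3* and *Per1* lay close together at 99.2, 91.7 and 89.3, and *Clock* was lowest at 71.4. *Dbp* stood above all the others in every mouse, its lowest value being 1568 normalized counts and the highest value of any other member 662 (*Nr1d1*). The ranges of *Per1*, *Per2*, *Per3* and *Clock* over mice overlapped widely, and so did those of *Nr1d1* and *Cry2*. The order of these neighbours by mean did not hold in every mouse, *Clock* being above *Per1* in *b6/b6* 6 (191 and 149.5). Their order within mice was not tested. The mean of *Dbp* was above that of 93.8% of all genes in the table and the mean of *Clock* above that of 34.8%.

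**Figure D1:**
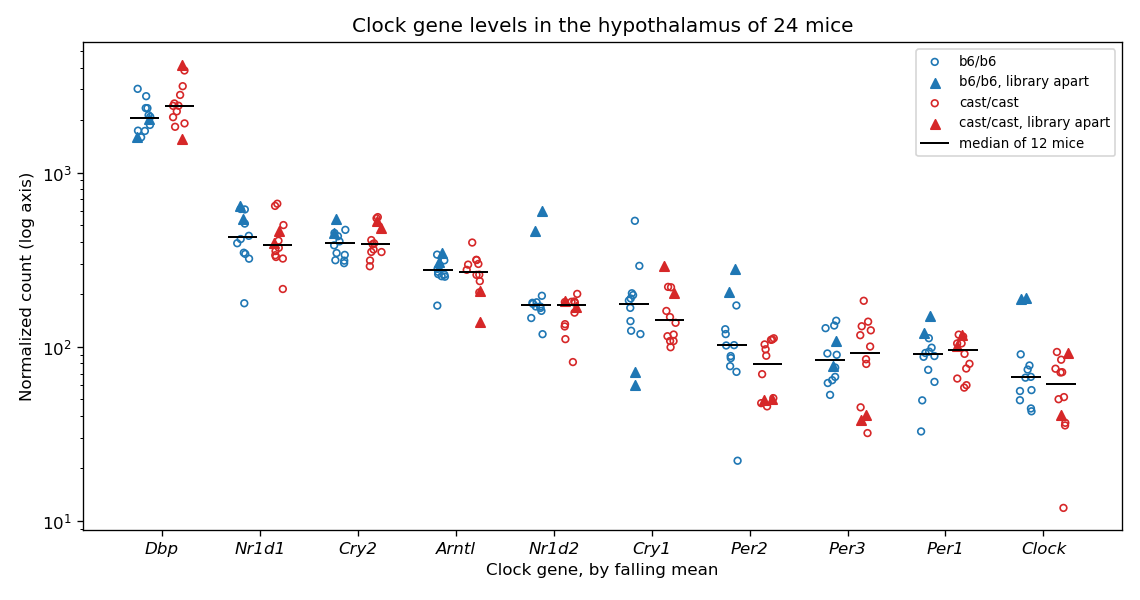
Normalized counts (log axis) of the 10 clock genes in 12 *b6/b6* (blue) and 12 *cast/cast* (red) mice, with the median of each genotype as a bar and the 4 libraries that stood apart as filled triangles. The genotypes overlap for every gene, and *b6/b6* 6 and 12 lie above all other mice for *Nr1d2* and *Clock*.

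The tag that each of these counts should come from was predicted from the reference, to see whether close relatives such as *Per1*, *Per2* and *Per3* could share a tag. The 27 bases starting at the 3′-most CATG, the site at which NlaIII cuts in SAGE, were read from GENCODE vM21 transcripts (GRCm38) that are paired with a RefSeq mRNA. CATG is in capitals, and each tag lies in a single exon, within a 3′ untranslated region.
*Arntl*, chr7:113313988-113314014, plus strand: CATGtggatatttcttatactaattgt
*Clock*, chr5:76212400-76212426, minus strand: CATGtcatttcagcgttcccatttgag
*Per1*, chr11:69109824-69109850, plus strand: CATGgagtccctggtgctgcccctcag
*Per2*, chr1:91416077-91416103, minus strand: CATGcgcaaaccaaacgtaccttcacc
*Per3*, chr4:151003964-151003990, minus strand: CATGggggtcatacccagtggaaactc
*Cry1*, chr10:85131826-85131852, minus strand: CATGtaatcaagtgcataggcctctgt
*Cry2*, chr2:92403751-92403777, minus strand: CATGgggaagagatggttgcaggcaag
*Nr1d1*, chr11:98768009-98768035, minus strand: CATGctcccatcctcccctatttaaac
*Nr1d2*, chr14:18204416-18204442, minus strand: CATGttaaccctgactttatgtttcaa
*Dbp*, chr7:45710086-45710112, plus strand: CATGttggggaacccatccatccaacc
Each of these tags belonged to 1 gene among 92389 distinct predicted tags, of which 2.69% were shared by more than 1 gene. For *Clock* the transcript ending where the deposited position ends is shown, and 2 longer or shorter forms carry other tags. Which tags were counted for a gene was not given in the sources used here. None of the 10 genes lies on Chr 17, so both genotypes carry *b6* alleles there. The genes of which most is said below lie at chr5:76212177-76304548 (*Clock*, minus strand), chr11:69098956-69109957 (*Per1*, plus strand), chr4:151003655-151044622 (*Per3*, minus strand) and chr14:18204056-18239106 (*Nr1d2*, minus strand) of GRCm38.

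No clock gene was called different between the genotypes. A gene was called at an unadjusted *P* of at most 0.01 in limma, fitted to log2(normalized count + 1) over all genes, together with group means that differed at least 1.5-fold. By this rule 0 of the 10 members were called, against 208 of 13998 genes (1.49%). At an unadjusted *P* of at most 0.05 the count was still 0 of 10 with limma, against 1138 genes, and 2 of 10 (*Per2* and *Nr1d2*) with edgeR and with DESeq2 on the recovered tag hits, which also called 0 members by the full rule. Over all genes the counts at that *P* were 1618 with edgeR and 1688 with DESeq2. Log2 differences below are *cast/cast* minus *b6/b6*, and their intervals are 95% intervals of the limma fit.

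Among the activators, *Arntl* had 172 normalized counts in the lowest, 274 in the median and 347 in the highest *b6/b6* mouse, and 138, 267 and 396 in *cast/cast* mice. The genotypes overlapped over nearly their whole ranges, and the log2 difference was -0.09 (SE 0.15, *P* = 0.559, interval -0.39 to 0.21), and 0.085 (*P* = 0.518) without the 4 libraries apart. *Clock* had 42.5, 66.7 and 191 normalized counts (lowest, median, highest) among *b6/b6* mice, against 11.8, 61.1 and 93.1 among *cast/cast* mice. Only *b6/b6* 6 and 12 exceeded the highest *cast/cast* mouse, and the lowest value, in *cast/cast* 1, rests on 11 tag hits. The log2 difference of *Clock* was -0.47 (SE 0.30, *P* = 0.124), and without those 2 *b6/b6* mice it was -0.20 (*P* = 0.459). With study number as a covariate it was -0.58 (*P* = 0.0612).

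Of the repressors, *Per1*, which light and cAMP signals induce as well as the clock, had 32.6, 90.1 and 149.5 normalized counts among *b6/b6* mice, against 58.1, 95.6 and 117 among *cast/cast* mice. Its log2 difference was 0.09 (SE 0.20, *P* = 0.654, interval -0.32 to 0.51). *Per2* had 22.1, 102 and 279.5 normalized counts among *b6/b6* mice, against 45.4, 79.0 and 112 among *cast/cast* mice. The mice above the *cast/cast* range were *b6/b6* 12, 6, 4, 8 and 3, and the lowest of all was *b6/b6* 2. The log2 difference of *Per2* was -0.50 (SE 0.29, *P* = 0.0967), and -0.25 (*P* = 0.349) without *b6/b6* 6 and 12. With edgeR it was -0.63 (*P* = 0.0300) and with DESeq2 -0.64 (*P* = 0.0221), called in neither. *Per3*, whose loss leaves the core loop running, had 52.8, 83.5 and 141 normalized counts among *b6/b6* mice, against 31.9, 92.3 and 183 among *cast/cast* mice. Its *cast/cast* mice spread below and above the *b6/b6* range, with *cast/cast* 4, 5, 6 and 8 the 4 lowest of the 24. The log2 difference was -0.10 (SE 0.27, *P* = 0.700), whereas the ratio of means was 1.02, and without the 4 libraries apart the log2 difference was 0.12 (*P* = 0.671).

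The cryptochromes, which repress the activator pair together with the PER proteins, differed in their spread. *Cry1* had 59.8, 175 and 528 normalized counts among *b6/b6* mice, against 99.2, 142 and 292 among *cast/cast* mice, with *b6/b6* 4 highest and *b6/b6* 6 and 12 lowest of all. Its log2 difference was -0.09 (SE 0.27, *P* = 0.727) with all mice, and without the 4 libraries apart it was -0.49 (*P* = 0.0425), which the rule does not call. *Cry2* ranged only from 302 to 537 normalized counts among *b6/b6* mice, against 289 to 555 among *cast/cast* mice. Its log2 difference was 0.06 (SE 0.13, *P* = 0.657, interval -0.21 to 0.33).

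In the stabilising loop, *Nr1d1* had 177, 424 and 643 normalized counts among *b6/b6* mice, against 214, 382 and 662 among *cast/cast* mice, and a log2 difference of -0.09 (SE 0.20, *P* = 0.668, interval -0.49 to 0.32). Its close relative *Nr1d2* had 118, 173 and 601 normalized counts among *b6/b6* mice, against 81.5, 174 and 201 among *cast/cast* mice. The medians were nearly equal, and *b6/b6* 6 and 12, at 459.7 and 601, stood far above the other 22 mice. The mean of *b6/b6* mice was 227 ± 146 (SD, n = 12), or 166 ± 21.4 (n = 10) without that pair, and the mean of *cast/cast* mice was 157 ± 35.7 (n = 12). The log2 difference of *Nr1d2* was -0.38 (SE 0.22, *P* = 0.0901), and -0.11 (*P* = 0.466) without them. It was -0.53 with study number as a covariate (*P* = 0.0127), with edgeR (*P* = 0.0306) and with DESeq2 (*P* = 0.0278), and was called in none of these.

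The output gene *Dbp* had 1594, 2055 and 3025 normalized counts among *b6/b6* mice, against 1568, 2417 and 4171 among *cast/cast* mice. *Cast/cast* 6, 1 and 3 were the 3 highest of all, but *cast/cast* 4 was the lowest. The log2 difference was 0.26 (SE 0.15, *P* = 0.0983, adjusted *P* = 0.639, interval -0.05 to 0.58). The intervals of *Arntl*, *Per1*, *Cry2*, *Nr1d1* and *Dbp* thus all lay within a 1.5-fold change in either direction (0.58 on the log2 scale), whereas those of *Clock* (-1.08 to 0.14), *Per2* (-1.09 to 0.10), *Per3* (-0.65 to 0.44), *Cry1* (-0.64 to 0.45) and *Nr1d2* (-0.83 to 0.06) reached beyond it. For these 5 genes the spread between mice leaves room for a difference of that size. The upper limit of *Dbp* equalled the bound after rounding, and its log2 difference was larger with DESeq2 and with edgeR (both 0.29). The median log2 difference was -0.09 over the members and -0.02 over all genes.

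The 2 *b6/b6* libraries that stood apart held the extreme values of several clock genes. Both lay above all 22 other mice for 4 of the 10 members (*Clock*, *Per1*, *Per2* and *Nr1d2*), as they did for 18.6% of all genes, and below all others for 1 member (*Cry1*), as for 11.8% of all genes. *Clock* was 191 and 188 normalized counts in *b6/b6* 6 and 12, against at most 93.1 in the other mice. *Per2* was 206 and 279.5, against at most 172. Among other components of the loop, the same 2 mice were above all others for 4 of 19, namely *Csnk1e*, which encodes a kinase of PER proteins, *Bhlhe40*, a repressor at E-boxes, *Timeless* and *Sfpq*, and below all others for 1, *Fbxw11*. Among clock output genes they were above all others for 4 of 19, namely *Nfil3*, a repressor at D-boxes, *Nampt*, *Tsc22d3* and *Rbm3*, and below all others for 4 more, *Hlf*, *Sgk1*, *Cirbp* and *Coq10b*. In both lists the share above is near that of all genes. The share below is higher than that of all genes among clock output genes and lower among the loop components, and neither was tested. The 2 haemoglobin genes measured were also highest there, and the summed blood markers were 4999 and 1704 normalized counts in *b6/b6* 6 and 12, of which *Hba-a1* was the most abundant gene. The part of blood in the levels of these 2 mice was not tested.

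Other genes of the pathway were read from lists of known clock genes and of cell type markers. Of the core loop partners, 0 of the 19 in the table were called between the genotypes, with a median log2 difference of -0.09. Those with the lowest *P* were the kinases *Gsk3b* (log2 difference -0.25, *P* = 0.129) and *Csnk1a1* (-0.19, *P* = 0.188), and the most abundant was *Fbxw11*, an F-box protein that marks PER for degradation, with 3875 normalized counts. Of the clock output genes, 0 of 19 were called with limma. *Sgk1*, a kinase that glucocorticoids also induce, had 93.4, 264 and 620 normalized counts (lowest, median, highest) among *b6/b6* mice, against 142, 446 and 1297 among *cast/cast* mice (log2 difference 0.85, SE 0.33, *P* = 0.0151, adjusted *P* = 0.532), with *b6/b6* 6 and 12 the lowest of all. It was called with DESeq2 (0.96, *P* = 0.00299) and edgeR (0.94, *P* = 0.00696), and its log2 difference was 0.39 (*P* = 0.201) without the 4 libraries apart. *Hspa5*, a chaperone of the endoplasmic reticulum, had a log2 difference of 0.22 (*P* = 0.0470), and *Tef*, a relative of *Dbp*, was the most abundant with a mean of 17741 normalized counts.

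Of the suprachiasmatic nucleus markers, 0 of 16 were called with limma. The lowest *P* belonged to *Vipr2*, the receptor of vasoactive intestinal peptide (log2 difference -0.66, *P* = 0.0171), and to the prokineticin receptor *Prokr2* (-0.71, *P* = 0.0189), for both of which *b6/b6* 6 and 12 were the highest mice, and *Rasd1* was the most abundant gene. Both receptor genes were called lower in *cast/cast* mice with DESeq2 (*P* = 0.00559 for *Vipr2* and 0.00709 for *Prokr2*), with edgeR (0.00854 and 0.00921) and with study number as a covariate (0.00184 and 0.00257). Without the 4 libraries apart both log2 differences were -0.38 (*P* = 0.128 and 0.143), and neither was called. The summed level of this list was 2553 to 7337 normalized counts among *b6/b6* mice, against 3331 to 7435 among *cast/cast* mice. Of the hypothalamus markers 0 of 16 were called, *Ghrh* and *Crh* having the lowest *P* (0.181 and 0.184). *Crh* had a log2 difference of 0.62 in all mice and 0.95 (*P* = 0.0227) without the 4 libraries apart, and was called in neither. Among immediate early genes 0 of 9 were called with limma in all mice, with *Fosb* at a log2 difference of 0.58 (*P* = 0.0418), *Junb* at 0.42 (*P* = 0.154) and *Fos* the most abundant. Without the 4 libraries apart *Junb* was called higher in *cast/cast* mice (0.71, *P* = 0.00481), and without *b6/b6* 6 and 12, the lowest mice for *Fosb*, *Fosb* was at 0.26 (*P* = 0.204). Among glucocorticoid response genes 0 of 11 were called with limma, with *Plin4* at 1.01 (*P* = 0.0321) and *Mt2* the most abundant. *Plin4* was called with edgeR (1.84, *P* = 0.00293) but was at 0.51 (*P* = 0.0929) with DESeq2, and at 0.55 (*P* = 0.101) in limma without the 4 libraries apart.

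Markers of neighbouring tissue were looked at in the same way. Of the thalamus markers 1 of 8 was called, *Tcf7l2*, which had a median of 178 normalized counts among *b6/b6* mice, against 87.6 among *cast/cast* mice (log2 difference -0.84, SE 0.29, *P* = 0.00710, adjusted *P* = 0.449), while *Rgs16* was the most abundant. With study number, in which the genotypes differ, as a covariate, *Tcf7l2* was at -0.72 (*P* = 0.0185) and no longer called, while it was called with DESeq2 (-0.97, *P* = 0.00136), with edgeR (-0.98, *P* = 0.00288) and without the 4 libraries apart (-1.11, *P* = 0.000753). No gene was called with limma among 10 markers of cortex and striatum (*Rgs9* 0.37, *P* = 0.113, and *Penk* the most abundant), 5 of choroid plexus (*Kl* -0.18, *P* = 0.230 and *Clic6* -0.31, *P* = 0.233), 4 of pituitary (*Gh* -0.72, *P* = 0.527 and *Fshb* -0.30, *P* = 0.729) and 3 of blood (*Alas2* -0.92, *P* = 0.0456 and *Hba-a2* -0.92, *P* = 0.0602). Both haemoglobin genes were called lower in *cast/cast* mice with DESeq2 (*Hba-a1* -1.51, *P* = 0.00120, and *Hba-a2* -1.62, *P* = 0.000645) and edgeR (-1.52, *P* = 0.00496, and -1.62, *P* = 0.00347). In limma without *b6/b6* 6 and 12 they were at -0.44 (*P* = 0.270) and -0.38 (*P* = 0.295). Without the 4 libraries apart *Rgs9* was at 0.067, *Clic6* at -0.057, *Gh* at 0.21 and *Fshb* at 0.11, none of them called. *Gh* was at 0 in some mice of both genotypes and the summed pituitary markers reached 472 normalized counts in *b6/b6* 12. The median log2 difference was 0.10 over the clock output genes, 0.06 over each of the lists for suprachiasmatic nucleus, hypothalamus and thalamus, 0.04 for cortex and striatum, 0.13 for immediate early genes, 0.17 for glucocorticoid response genes, -0.18 for choroid plexus, -0.28 for pituitary and -0.92 for blood, against -0.02 over all genes. The part of neighbouring tissue in the clock gene levels was not tested.

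Whether clock genes moved with the study number was asked because that number was assumed to be a proxy for when a mouse was tested. The median study number was 120.5 among *cast/cast* mice, against 269.5 among *b6/b6* mice, so genotype was kept as a term. With all 24 mice limma called 0 of the 10 members at an adjusted *P* of at most 0.05, and 0 genes in all (0%). At an unadjusted *P* of at most 0.05 the counts were 3 of 10 members and 2968 genes with limma, 4 members and 3227 genes with edgeR, and 4 members and 3607 genes with DESeq2. The 3 members with limma were *Nr1d2*, with a slope of -0.26 on the log2 scale per 100 study numbers (SE 0.09, *P* = 0.00629, adjusted *P* = 0.152), *Per1* (-0.23, SE 0.08, *P* = 0.00821, adjusted *P* = 0.156) and *Cry1* (0.29, SE 0.11, *P* = 0.0114, adjusted *P* = 0.161). On the recovered tag hits *Nr1d2* passed with edgeR (adjusted *P* = 0.0495) and DESeq2 (adjusted *P* = 0.0208), as 1 of 10 members. Of all 13998 genes, 385 passed with edgeR and 959 with DESeq2, and 372 and 844 of these had negative slopes. Without the 4 libraries apart the limma slope of *Nr1d2* was -0.06 (adjusted *P* = 0.597). Those of *Per1* and *Cry1* were then -0.17 and 0.26 (adjusted *P* = 0.243 and 0.0885). In that fit 2 members and 4659 genes had an unadjusted *P* of at most 0.05. Leaving out only the 2 *b6/b6* libraries apart gave 0 of 10 members and 539 genes at that *P*. The slopes were then -0.08 for *Nr1d2*, -0.18 for *Per1* and 0.15 for *Cry1* (each adjusted *P* = 0.866).

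Without the 4 libraries apart, *Per3* was the member that passed. Its slope in the remaining 20 mice was -0.43 on the log2 scale per 100 study numbers (limma, adjusted *P* = 0.0175), against -0.19 (adjusted *P* = 0.315) in all 24. The 2 *cast/cast* libraries apart had low study numbers (15 and 72) and low *Per3* (38.1 and 40.4 normalized counts), whereas the other mice with study numbers of 121 or less lay at 77.2 or more. The call of *Per3* without the 4 libraries apart was 1 of 10 members where 15.3% of all genes passed, so the share is near that of the table. In the same fit, *Rorb*, *Fbxw11* and *Usp2* among core loop partners had positive slopes past the threshold and *Gm129*, the older name of the repressor gene *Ciart*, a negative one. Among clock output genes *Tef* and *Tspan4* passed with positive slopes and *Id2* with a negative one, and among suprachiasmatic nucleus markers *Rorb* passed with a positive slope and *Grp*, a peptide of its light-recipient cells, with a negative one. *Rgs9* and *Alas2* passed with positive slopes and *Penk*, *Arc*, *Dusp1* and *Nfkbia* with negative ones in the other lists. These genes were named after their values were seen.

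**Figure D2:**
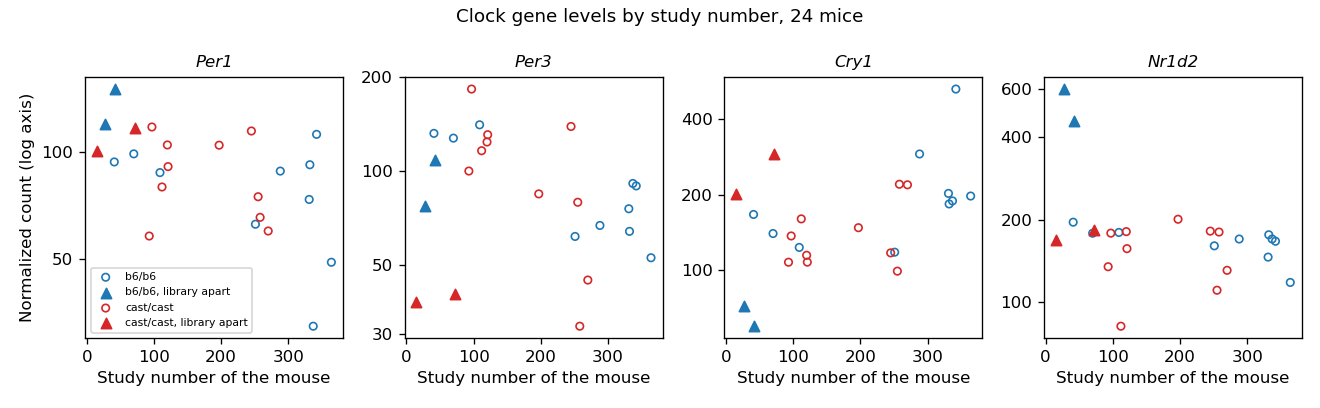
Normalized counts (log axis) of *Per1*, *Per3*, *Cry1* and *Nr1d2* against the study number of each mouse, *b6/b6* in blue and *cast/cast* in red, with the 4 libraries apart as filled triangles. For *Per3* the 2 red triangles at low study numbers sit below the other mice there, and for *Nr1d2* the 2 blue triangles lie above all others.

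The clock genes also varied among mice of 1 genotype, and by different amounts. After genotype means were removed, the coefficient of variation over the 24 mice was 20.7% for *Cry2*, 21.0% for *Arntl*, 27.6% for *Dbp*, 30.5% for *Per1*, 31.9% for *Nr1d1*, 43.6% for *Per3*, 53.0% for *Per2*, 55.4% for *Nr1d2*, 55.6% for *Cry1* and 56.9% for *Clock*. The median over all genes was 39.1%. *Cry2* was more variable than 8.16% of genes and *Clock* more variable than 79.6%. Without the 4 libraries apart the coefficient was 19.3% for *Nr1d2* and 34.9% for *Clock*. That of *Per2* was then 37.7%, of *Cry1* 51.0%, of *Per3* 40.6% and of *Nr1d1* 33.9%, and the median over all genes 32.2%, so that the place of *Nr1d2* and *Clock* among the most variable members rests on those libraries. Much of the variation in the table ran along 2 axes, the first 2 principal components of the genes outside the clock list, which held 40.8% and 18.6% of the variance. The first had its highest scores in *cast/cast* 6 and 4, and the second in *b6/b6* 12 and 6. These axes held 78.8% of the variance of *Nr1d2* and 71.0% of that of *Cry1*, but only 12.1% of that of *Nr1d1* and 8.38% of that of *Dbp*, the median gene being at 50.2%.

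Of the 45 pairs of members, 2 varied together across mice past the threshold, *Clock* with *Per1* and *Clock* with *Nr1d2*. Correlations were computed on log2 values with genotype means removed and tested by permuting mice within genotype (test in both directions), with Benjamini-Hochberg adjustment over the 45 pairs. For *Clock* and *Per1*, Pearson's *r* was 0.69 (permutation *P* = 0.00011, adjusted *P* = 0.00495) and Spearman's rho 0.77 (permutation *P* = 2e-05). Within the genotypes *r* was 0.70 among *b6/b6* mice, against 0.74 among *cast/cast* mice. It was 0.61 without *cast/cast* 1 and *b6/b6* 6, the 2 mice farthest from the median of *Clock*, and 0.58 (adjusted *P* = 0.0328) without the 4 libraries apart. With the 2 principal components removed it was 0.47 and no longer passed (adjusted *P* = 0.127).

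For *Clock* and *Nr1d2*, *r* was 0.68 (permutation *P* = 0.00118, adjusted *P* = 0.0265) and rho 0.73 (permutation *P* = 0.00021). It was 0.86 among *b6/b6* mice, against 0.51 among *cast/cast* mice, and 0.73 without *cast/cast* 1 and *b6/b6* 6. Without *b6/b6* 6 and 12 it was 0.44 (adjusted *P* = 0.415), so that the call rests on those 2 mice, and with the 2 principal components removed it was 0.07 (adjusted *P* = 0.782). *Per1* and *Nr1d2* came next (*r* = 0.60, permutation *P* = 0.0087, adjusted *P* = 0.121), and passed by Spearman's rho (0.65, permutation *P* = 0.00049, adjusted *P* = 0.00735). Over all 97965003 pairs of genes in the table, 6.67% had an absolute *r* of 0.68 or more, and the median absolute *r* was 0.28, against 0.24 over the 45 pairs of members. Strong correlation was thus common among genes of these libraries, and 2 of 45 pairs of members is no more than that share.

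With libraries rescaled to the same total 6 pairs passed. The 4 gained were *Per1* with *Nr1d2* (*r* = 0.69, adjusted *P* = 0.0183), *Cry2* with *Nr1d2* (0.66, adjusted *P* = 0.0197, against 0.47 and 0.121 before rescaling), *Arntl* with *Per3* (0.63, adjusted *P* = 0.0197, against 0.49 and 0.174) and *Arntl* with *Per2* (0.54, adjusted *P* = 0.0322, against 0.39 and 0.214).

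Of the other pairs that the feedback loop joins, 3 are given here, none of which passed. *Arntl* and *Clock*, whose proteins act as a dimer, had an *r* of -0.17 (permutation *P* = 0.437, adjusted *P* = 0.696, rho -0.011, permutation *P* = 0.960), with 0.50 in *b6/b6* mice and -0.57 in *cast/cast* mice, a difference that was not tested, and -0.20 without *cast/cast* 6 and *b6/b6* 1. *Arntl* and its repressor *Nr1d1* had an *r* of 0.25 (permutation *P* = 0.238, adjusted *P* = 0.466, rho 0.35, permutation *P* = 0.0931), with 0.49 in *b6/b6* mice and 0.07 in *cast/cast* mice, and 0.39 without the same mice. *Dbp* and *Per3* had an *r* of 0.13 (permutation *P* = 0.583, adjusted *P* = 0.795, rho 0.13, permutation *P* = 0.574), with 0.31 in *b6/b6* mice and 0.06 in *cast/cast* mice, and -0.21 without *cast/cast* 5 and 4. *Per3* was inversely related to both cryptochromes in *cast/cast* mice (*r* = -0.78 with *Cry1* and -0.74 with *Cry2*) and less so in *b6/b6* mice (-0.22 and -0.06), a difference between genotypes that was not tested. Over all mice these values were -0.45 (permutation *P* = 0.0123, adjusted *P* = 0.121, rho -0.54, permutation *P* = 0.00749) and -0.51 (permutation *P* = 0.0161, adjusted *P* = 0.121, rho -0.45, permutation *P* = 0.0346), which missed the threshold. With the 2 principal components removed both turned positive (0.31 and 0.050, adjusted *P* = 0.450 and 0.821). They were -0.40 and -0.34 without *cast/cast* 5 and 4, the mice farthest from the median of *Per3*. With libraries rescaled to the same total they were -0.45 and -0.22 (adjusted *P* = 0.0550 and 0.462).

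**Figure D3:**
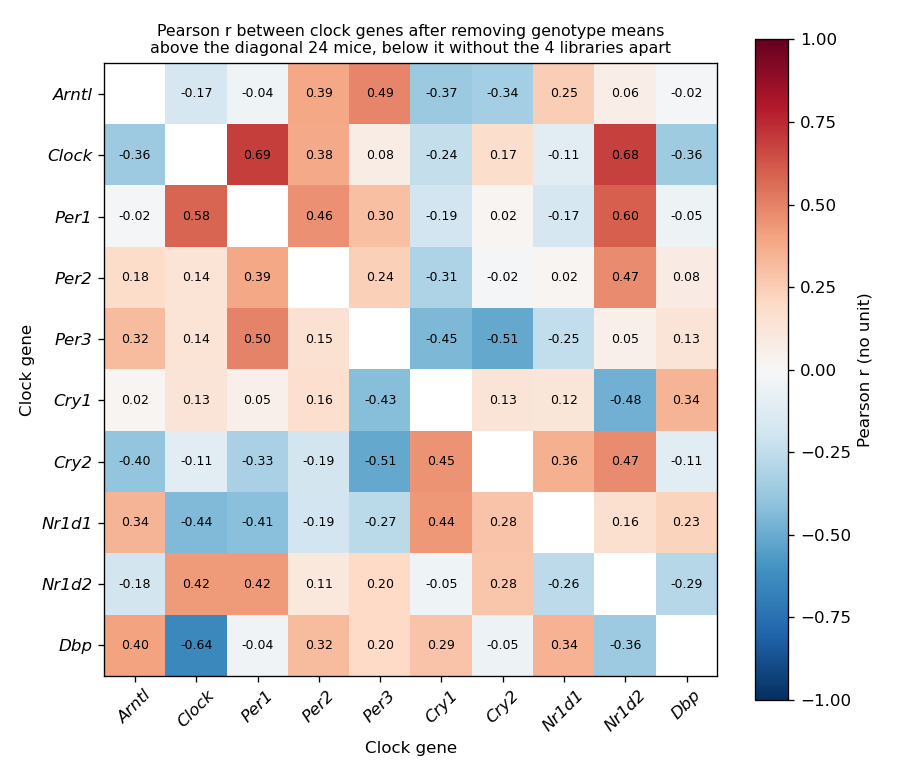
Pearson's *r* (no unit) for each pair of the 10 clock genes after removal of genotype means, in all 24 mice above the diagonal and in the 20 mice without the libraries apart below it. *Clock* and *Per1* have 0.69 and 0.58, and *Clock* and *Nr1d2* 0.68 and 0.42.

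The genes that varied most like each clock gene were taken from 9995 genes with a mean of at least 50 normalized counts, by Pearson's *r* over the 24 genotype-centred mice and without a test. For *Clock* they were *Smad5* (0.91) and *Trak2* (0.89), with *Dnajc8* the most opposed (-0.89). *Per1* was 254th in that order and *Nr1d2* 279th, whereas in the order for *Per1*, which *Appl1* led at 0.82, *Clock* was 24th. For *Nr1d2* they were *Usp31* and *Slc25a25* (both 0.93) against *Bbip1* (-0.93), and for *Cry1* *Nme7* (0.95) and *Spag9* (0.94) against *Sod1* (-0.92). For *Per1* the second was *Tecpr1* (0.77) and the most opposed *Rnf112* (-0.81). *Arntl* was followed by *Mbd5* and *Snrpb2* (both 0.90) and opposed by *Cald1* (-0.88). *Per2* had *Rnasek* (0.83) and *Arpc2* (0.80) against *Fam118a* (-0.82), *Per3* had *Me2* (0.88) and *AU021034* (0.87) against *Spg20* (-0.86), and *Cry2* had *Tnfaip1* (0.84) against *Grb14* (-0.86). *Dbp* and *Nr1d1*, with the least variance on the main axes, had the weakest positive matches, *Ccdc174* (0.74) and *1110001A16Rik* (0.72) for *Dbp*, against *Reep1* (-0.79), and *Psmc4* (0.73) and *Pygb* (0.71) for *Nr1d1*, against *Tcte1* (-0.69).

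The 250 bases before the transcription start were searched on both strands in RefSeq promoters (GRCm38.p6). The search was made because *Per1* and *Nr1d2* passed the threshold with *Clock*, and *Dbp* encodes a factor that binds D-boxes. Correlation of that strength was no more common among members than among all pairs of genes. The letters searched were CACGTG (E-box), TGACGTCA (cAMP response element), TTATGTAA (D-box) and AGGTCA (RORE core), which do not overlap in the windows printed. Of the 10 members 9 had a promoter entry, with 13 windows in all. The E-box was found in 2 of these 13 windows (1 each of *Per1* and *Cry1*), against 6.02% of 32851 windows of all genes, and the D-box in 1 (*Per3*, 2 copies), against 0.819%. The RORE core was found in 3 of the 13 (1 each of *Clock*, *Per1* and *Nr1d2*), against 14%, and the cAMP response element in 0, against 1.55%. *Per2* has no entry. These matches describe letters and are not binding sites, and sequence outside these windows was not searched. Matches are in capitals in the windows of *Per1*, *Nr1d2* and *Per3*, which are shown as the genes that passed the threshold with *Clock* and as the gene with the D-box.
*Per1*, chr11:69098699-69098948, plus strand: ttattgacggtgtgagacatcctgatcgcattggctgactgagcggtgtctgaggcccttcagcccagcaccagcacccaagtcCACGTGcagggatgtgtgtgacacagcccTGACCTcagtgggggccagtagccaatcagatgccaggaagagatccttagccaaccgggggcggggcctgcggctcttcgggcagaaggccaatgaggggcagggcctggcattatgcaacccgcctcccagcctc
*Nr1d2*, chr14:18239107-18239356, minus strand: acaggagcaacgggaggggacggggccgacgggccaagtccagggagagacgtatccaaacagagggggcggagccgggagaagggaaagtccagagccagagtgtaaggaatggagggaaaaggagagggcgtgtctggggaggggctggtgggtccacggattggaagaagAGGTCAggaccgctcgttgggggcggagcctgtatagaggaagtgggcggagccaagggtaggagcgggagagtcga
*Per3*, chr4:151044666-151044915, minus strand: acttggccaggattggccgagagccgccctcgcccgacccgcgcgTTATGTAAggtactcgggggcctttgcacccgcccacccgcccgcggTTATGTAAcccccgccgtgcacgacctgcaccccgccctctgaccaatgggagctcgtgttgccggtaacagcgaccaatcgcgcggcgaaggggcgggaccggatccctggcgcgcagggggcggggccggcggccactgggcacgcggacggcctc
The E-box of *Per1* begins 166 bases before the start and is followed by a RORE core on the opposite strand at 137 bases. The D-boxes of *Per3* begin 205 and 158 bases before its start.

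Intake over the 10 d test was set against each clock gene within each genotype, giving 40 correlations of 10 genes with carbohydrate/protein kcal and total kcal. After Benjamini-Hochberg adjustment 0 passed at 0.05, and 8 had an unadjusted permutation *P* of at most 0.05. The share of all genes with such a *P* was not computed, so the count of 8 is not read as a result about clock genes. The lowest carbohydrate/protein intake, 27.4 kcal, was that of *b6/b6* 12, a library apart. The lowest *P* was that of *Per1* with carbohydrate/protein kcal in *b6/b6* mice (*r* = -0.69, permutation *P* = 0.0153, adjusted *P* = 0.196, rho -0.72, permutation *P* = 0.0102, n = 12), with an *r* of -0.66 without the 2 mice farthest from the median intake, but of -0.30 (adjusted *P* = 0.591) with the share of carbohydrate/protein in total kcal. *Nr1d2* in the same mice had an *r* of -0.68 (permutation *P* = 0.0182, adjusted *P* = 0.196) but a rho of -0.28 (permutation *P* = 0.370), and -0.33 without the 2 farthest mice, so that its relation rests on them. With that share it was -0.50 (adjusted *P* = 0.253). *Clock* had an *r* of -0.66 there (permutation *P* = 0.0201, rho -0.55, permutation *P* = 0.0681), -0.31 without the 2 farthest mice and -0.35 (adjusted *P* = 0.508) with the share. *Per2* had an *r* of -0.66 (permutation *P* = 0.0245, rho -0.47, permutation *P* = 0.125), -0.53 without them and -0.72 (adjusted *P* = 0.253) with the share. Without the libraries apart, *r* with carbohydrate/protein kcal in *b6/b6* mice was -0.71 for *Per1* and -0.19 for *Nr1d2*. It was then -0.36 for *Clock* and -0.44 for *Per2*. With total kcal, *Per1* had an *r* of -0.59 in *b6/b6* mice (permutation *P* = 0.0411, adjusted *P* = 0.228, rho -0.74, permutation *P* = 0.00762), and -0.41 without the 2 farthest mice. In *cast/cast* mice *Dbp* had an *r* of 0.66 with total kcal (permutation *P* = 0.0208, adjusted *P* = 0.196, rho 0.62, permutation *P* = 0.0366), and 0.36 without the 2 mice farthest from the median. In these mice it was 0.74 (adjusted *P* = 0.265) without the libraries apart and 0.76 (adjusted *P* = 0.166) with libraries rescaled to the same total. *Per3* (*r* = 0.61, permutation *P* = 0.0366, rho 0.48, permutation *P* = 0.123) and *Cry1* (*r* = -0.59, permutation *P* = 0.0456, rho -0.74, permutation *P* = 0.00851) had the other low *P* values in these mice, both with an adjusted *P* of 0.228 and with an *r* of 0.22 and -0.45 without the farthest mice.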

How the data were processed

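Hypothalamus RNA of 24 mice was measured by SAGE-Seq (SOLiD SAGE). The signal values deposited by the authors are tag hits per gene, aligned to RefSeq mRNA and GRCm38 (mm10) and divided by DESeq size factors. The deposited table also holds mean counts, fold changes and P-values of the authors' own genotype comparison, which were not used. The 19529 rows hold 13998 genes, and in every library 100% of values divided by a common step were whole (tolerance 0.01), which gave back the tag hits. Members and gene lists were chosen with earlier results of these data known.

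Genes with a mean of at least 5 were fitted on log2(normalized count + 1) with limma 3.58.1 (lmFit, eBayes with trend), edgeR 4.0.16 and DESeq2 1.42.0 on tag hits being alternatives. Genotype calls needed P of at most 0.01 and a 1.5-fold ratio of means, study number calls a Benjamini-Hochberg adjusted P of at most 0.05. Correlations used 100000 permutations of mice within genotype, whose smallest P is 1e-05. Calls from counts cover counting error and spread between mice only, and tags carry no molecular identifiers. The fits and correlations were tested on simulated data. Python 3.11.15, numpy 2.4.6, pandas 2.3.3, scipy 1.17.1, matplotlib 3.10.9 and R 4.3.3 were used.

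Genes named were the members, for each member the 2 genes of highest and the 1 of lowest r, and from each list every gene past a call, up to 5 by lowest P, otherwise the 2 of lowest P, and the most abundant gene. Of these, 2 genes were left unnamed. The lists were core loop partners, clock output genes, markers of the suprachiasmatic nucleus, hypothalamus, choroid plexus, pituitary, thalamus, cortex and striatum, and blood, immediate early genes and glucocorticoid response genes. Alternatives were a pseudocount of 0.5 or 5, a minimum mean of 20 or none, libraries rescaled to the same total, leaving out the 4 libraries apart, the 2 other tools, other thresholds, study number as a covariate or removed from the pairs, its rank, colony number, Spearman's rho for the pairs, and the carbohydrate/protein share of intake. Leaving out 2 *b6/b6* mice, removing 2 principal components, and the alternatives for levels, variation and likeness were added after the data were seen. Deposited start positions count from 0.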

Additional observations from a re-analysis of the deposited data

How the results depend on the processing

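No clock gene was called between the genotypes under any alternative run for that comparison, and no intake correlation passed under any of its 5. Leaving out the minimum mean of 5 changed nothing, as 0 genes lay below it. Leaving out *b6/b6* 6 and 12, using 2 principal components as covariates, and the alternatives for levels, variation and likeness were chosen after seeing the data. The count of genes called between the genotypes was 696 with 2 principal components, 397 with DESeq2, 390 with edgeR, 80 with the threshold on adjusted P (0.05) and no fold, 1138 with it on unadjusted P (0.05), and 137 without *b6/b6* 6 and 12. Of those called, 31.7% were higher in *cast/cast* mice in limma, 20.7% with DESeq2, 15.4% with edgeR, 19.3% with 2 principal components, 18.7% with libraries rescaled to the same total and 46.2% at the unadjusted P. That rescaling moved the median log2 difference of all genes from -0.02 to -0.11. For the study number, DESeq2 called 959 genes and 1 member, edgeR 385 genes and 1 member, and the fit without the libraries apart 2135 genes and 1 member. Pairs past the threshold were 6 with libraries rescaled to the same total, 1 without the libraries apart, 1 without *b6/b6* 6 and 12, 0 with 2 principal components removed, and 3 by Spearman's rho, with *Per1* and *Nr1d2* gained. Calls of single genes that came or went, other than with 2 principal components, are given with those genes. The 2 components had genotype removed, so as covariates they left every genotype difference as it was and could change only its P, which for *Nr1d2* was then 0.00226, at less than 1.5-fold. The cause of the other changes was not tested.

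Log2 differences between the genotypes that turned sign, none of them called, were as follows. Without the libraries apart they were 0.085 for *Arntl*, 0.12 for *Per3*, -0.23 for *Fbxw11*, -0.22 for *Tef*, -0.039 for *Rasd1*, 0.34 for *Pmch*, 0.21 for *Gh*, 0.11 for *Fshb* and 0.44 for *Penk*. Without *b6/b6* 6 and 12 they were 0.011 for *Nr1d1*, -0.12 for *Fbxw11*, -0.053 for *Rasd1*, 0.12 for *Pmch*, 0.27 for *Gh* and 0.15 for *Penk*. With study number as a covariate they were -0.039 for *Per1* and 0.072 for *Cry1*, and with libraries rescaled to the same total -0.032 for *Cry2* and -0.063 for *Fbxw11*. DESeq2 gave 0.033 for *Per3*, 0.46 for *Fshb* and 0.067 for *Penk*, and edgeR 0.030 for *Per3*, 0.38 for *Fshb* and 0.067 for *Penk*. The cause was not tested.

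Study number slopes that turned sign, none past the threshold, were 0.074 for *Arntl*, 0.052 for *Clock*, 0.15 for *Per2* and -0.0610 for *Dbp* with 2 principal components. They were 0.026 for *Arntl*, 0.086 for *Per2*, 0.060 for *Cry2* and -0.029 for *Dbp* without *b6/b6* 6 and 12, and 0.0068 for *Clock*, 0.023 for *Per2*, 0.12 for *Cry2* and -0.049 for *Dbp* without the libraries apart. Libraries rescaled to the same total gave -0.020 for *Nr1d1* and -0.032 for *Dbp*, and the colony number 0.00133 for *Arntl*. Of all 45 pairs, 18 turned sign with 2 principal components removed, 11 without *b6/b6* 6 and 12, 10 without the libraries apart, 9 with libraries rescaled to the same total, 3 with study number removed and 3 by Spearman's rho, and none of these passed. Among the 13 pairs of lowest P or chosen from the loop, those that turned sign were *Per3* with *Cry1* (0.31), *Per3* with *Cry2* (0.050) and *Arntl* with *Per3* (-0.12) with 2 principal components removed, *Cry1* with *Nr1d2* (0.064) without *b6/b6* 6 and 12, and *Arntl* with *Clock* (0.13) with libraries rescaled to the same total. The cause was not tested. At this depth the lowest member value rests on 11 tag hits.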
